A study of Mus musculus with 12 samples.

Results

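The Gadd45 family of the mouse was followed as its 3 genes, Gadd45a (ENSMUSG00000036390), Gadd45b (ENSMUSG00000015312) and Gadd45g (ENSMUSG00000021453), found by symbol among the 55487 genes listed in the deposited count table. All 3 were among the 14175 genes that passed the filter on low counts. The cells were C2C12 myotubes, from a line of mouse myoblasts that fuse when serum is lowered. Every culture was differentiated for 5 days in medium with 2% horse serum and penicillin/streptomycin, and was then kept for 24 h in medium with either 4% horse serum (control, libraries 1 to 6) or 4% STEM (libraries 7 to 12). STEM is a preparation, free of cells, of the factors secreted by human embryonic stem cells that had been partly differentiated. It replaced the serum, so its addition and the removal of horse serum cannot be told apart. The labels do not say whether the 6 libraries of a group came from separate cultures, so the spread between them may be technical. The comparison asks how STEM altered transcription in the myotubes. The family was chosen by its levels in these same STEM and horse serum libraries, so the values of the 3 genes are described, with no p-value, and a count of calls among them stands only beside that over all genes.

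GADD45 proteins are small nuclear proteins without enzymatic activity, named for growth arrest and DNA damage, the conditions in which the first of them was found. They act by binding other proteins: they activate the kinase MTK1 (gene Map3k4) upstream of p38 and JNK, bind PCNA and p21, hinder the mitotic kinase CDK1 with cyclin B1, and have been linked to active DNA demethylation. Gadd45a is a known target of p53 and, in muscle, of ATF4 and is induced during fiber atrophy. Gadd45b is a known target of NF-kB and of TGF-beta signaling, and Gadd45g was identified as a gene induced by cytokines.

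Each member is a short protein-coding gene with 4 exons in its longest coding transcripts (GENCODE annotation, build GRCm38). Gadd45a lies on the minus strand of chromosome 6 (67035096 to 67037457), Gadd45b on the plus strand of chromosome 10 (80930073 to 80932204) and Gadd45g on the plus strand of chromosome 13 (51846678 to 51848468). Their upstream sequences are shown because the genes differed in their levels between the same media. The sequences are from RefSeq (GRCm38.p6), run 5′ to 3′ on the strand of the gene and end before the first annotated transcript start. They cover chr6:67037458-67037657 for Gadd45a, chr10:80929841-80930072 for Gadd45b and chr13:51846425-51846674 for Gadd45g. Capitals mark matches, on either strand, to TATAAA of the core promoter, to the CCAAT box, to the octamer motif ATTTGCAT and to the element TGATGNAA of C/EBP and ATF factors.
Gadd45a: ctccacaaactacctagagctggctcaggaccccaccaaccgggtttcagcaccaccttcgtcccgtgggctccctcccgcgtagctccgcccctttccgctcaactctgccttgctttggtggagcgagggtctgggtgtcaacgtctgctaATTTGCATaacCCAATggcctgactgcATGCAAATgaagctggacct
Gadd45b: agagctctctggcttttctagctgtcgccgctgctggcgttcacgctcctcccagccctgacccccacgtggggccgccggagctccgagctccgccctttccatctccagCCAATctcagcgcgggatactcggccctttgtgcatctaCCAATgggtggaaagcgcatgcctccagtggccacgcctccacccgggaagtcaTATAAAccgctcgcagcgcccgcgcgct
Gadd45g: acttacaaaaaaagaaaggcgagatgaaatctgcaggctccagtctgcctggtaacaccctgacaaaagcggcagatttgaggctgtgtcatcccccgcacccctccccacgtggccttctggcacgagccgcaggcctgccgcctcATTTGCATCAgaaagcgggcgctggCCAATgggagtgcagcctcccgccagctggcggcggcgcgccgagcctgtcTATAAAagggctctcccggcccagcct

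A search of both strands used 8 motifs in windows of 300 bases, from 250 bases before to 50 bases after the RefSeq start site, and the same search was run on all 32851 RefSeq promoter windows. The upstream region of Gadd45a held no TATAAA, while Gadd45b had a match beginning 46 bases before its start site and Gadd45g one beginning 27 bases before it. TATAAA was present in 13.6% of all windows. The annotated GENCODE start lies 50 bases upstream of the RefSeq start for Gadd45a and 18 bases upstream for Gadd45b. CCAAT was found in all 3 genes and in 37.4% of all windows. The octamer ATTTGCAT, present in 1.74% of all windows, occurred in Gadd45a and in Gadd45g and not in Gadd45b. Gadd45a had it on both sides of its CCAAT, beginning 97 and 70 bases before the start site. Gadd45g had it once, 103 bases before the start site, where it overlaps the only TGATGNAA match of the family, a motif in 3.97% of all windows. An E-box (CACGTG, 7.15% of windows) was present in Gadd45b and Gadd45g, and a GC box (GGGCGG, 35.7%) in Gadd45a and Gadd45b. Neither TGACGTCA (CRE, 1.79%) nor GTAAACA (forkhead element, 3.65%) matched in any of the 3 windows. These matches describe letters in the sequence and are not evidence of binding.

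**Figure D1:**
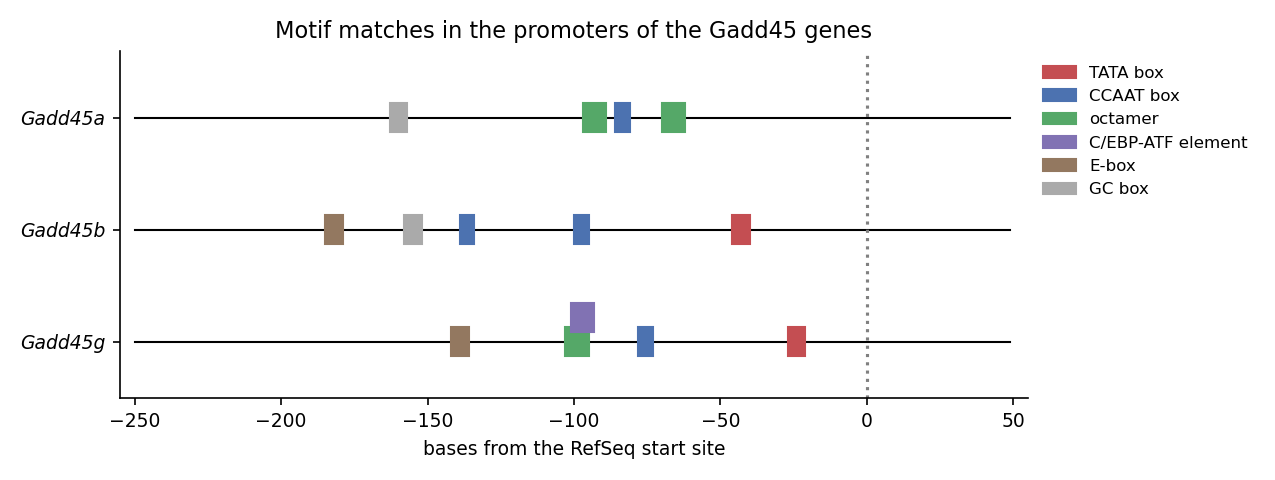
Motif matches in the windows of the 3 genes, with bases from the RefSeq start site on the horizontal axis (dotted line at 0) and 1 line per gene. A TATA box is drawn for Gadd45b and Gadd45g only, octamers for Gadd45a (2) and Gadd45g (1), and the C/EBP-ATF element of Gadd45g is drawn raised because it overlaps the octamer.

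The depth of the horse serum libraries was 13285472 to 18254882 counts and that of the STEM libraries 14909485 to 24536264 counts. Horse serum library 6 stood apart, at -53.3 on principal component 2 of the log2 CPM while the other 11 libraries lay between 0.22 and 11.8. On component 1, which held 44.2% of the variance, it lay at 11.2, nearer to the STEM libraries (15.5 to 28.6) than to the other horse serum libraries (-35.5 to -24.6). List counts without it are given beside each list. In that fit 3746 of 14267 tested genes were higher and 3499 lower (edgeR, adjusted p at or below 0.05). With all 12 libraries 2684 and 2471 of 14175 were. Of the 10 myotube markers examined (such as Myog, Ckm, Acta1 and Ttn) all were expressed. Their summed level was 13290 to 22517 CPM in horse serum, where library 6 was the lowest, and 17899 to 23399 CPM with STEM. Of these markers, 1 was called higher with STEM (Mymk, log2 fold change 0.36) and 2 were called lower (Myog, -0.29, and Myh8, -1.25). Without horse serum library 6, 1 was higher and 5 were lower. CPM are counts scaled to a common library size after TMM normalization. Of 10 markers of leukocytes, endothelium, epithelium, pluripotent and neural cells, 5 were at 3 counts or fewer in every library, with Sox2 and Pou5f1 at 0 throughout. The macrophage marker Cd68, at 3.598 ± 0.94 CPM in horse serum and 3.88 ± 0.47 CPM with STEM, and Pax6, at 0.73 ± 0.46 and 0.88 ± 0.35 CPM, passed the filter and were not called. The summed levels of the 10 genes were 4.50 to 6.03 CPM in horse serum and 4.16 to 6.48 CPM with STEM. The 10 myoblast and proliferation markers summed to 858 to 1311 CPM in horse serum (library 6 the highest) and to 696 to 798 CPM with STEM, so the groups did not overlap. Of these 10 genes, 7 were lower with STEM and 0 were higher (edgeR, adjusted p at or below 0.05). Over all tested genes, 17.4% were lower and 18.9% higher. In bulk RNA, fewer proliferating cells and less of their RNA per cell cannot be told apart, and the part of this shift in the values below was not tested.

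In STEM-treated myotubes Gadd45g was about 2.03-fold and Gadd45b about 1.48-fold the level in horse serum, while Gadd45a was more variable and lay at 0.844-fold. The relative contributions of the 3 genes did not overlap between the groups, but they are formed from these same levels and nothing further is read from them. Members called at an adjusted p of 0.05 or less in edgeR were 2 of 3, against 36.4% of all tested genes. Gadd45b and Gadd45g were also the 2 members for which all STEM libraries lay above all horse serum libraries, which held for 8.68% of all tested genes. The comparison was used to choose the family, and nothing is read from these counts.

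**Figure D2:**
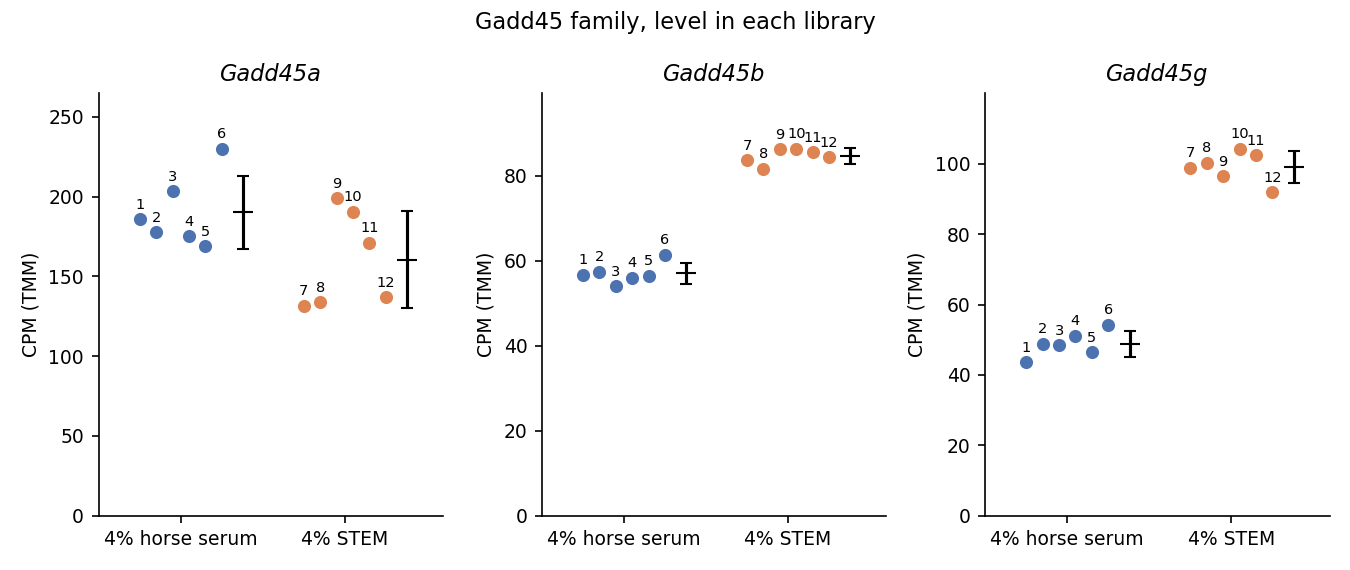
Level of each Gadd45 gene (CPM after TMM normalization, linear axis from 0) in each library, with library numbers beside the points and the mean ± SD of each group (n = 6) as a black bar. Gadd45b and Gadd45g are separated between the groups, whereas STEM libraries 9, 10 and 11 of Gadd45a lie within the range of the horse serum libraries.

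Gadd45g, the cytokine-inducible member, had the widest separation. In horse serum its lowest, median and highest values were 43.7, 48.7 and 54.2 CPM, and with STEM they were 91.9, 99.6 and 104.3 CPM. The lowest STEM library was therefore well above the highest horse serum library, which was library 6. Group means were 48.8 ± 3.66 CPM and 99.1 ± 4.44 CPM (SD, n = 6 each), on 633 to 1058 and 1365 to 2424 counts per library. The log2 fold change was 1.02 with a standard error of 0.053, and it ranked 153 from the highest among the 14175 tested genes.

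Gadd45b, known for its induction by TGF-beta and NF-kB, was the most uniform member within a group. Its lowest, median and highest values were 54.0, 56.6 and 61.4 CPM in horse serum and 81.7, 85.0 and 86.4 CPM with STEM, again without overlap. The mean was 57.0 ± 2.45 CPM in horse serum and 84.7 ± 1.81 CPM with STEM, each with its SD over 6 libraries, and the coefficient of variation was 4.30% in horse serum and 2.14% with STEM. On the log2 scale the difference was 0.57 (standard error 0.040), rank 654 from the highest.

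Gadd45a, the p53 and ATF4 target, was the most abundant member in counts, with 2302 to 4490 counts per horse serum library and 2035 to 3228 per STEM library. Its lowest, median and highest values were 168.8, 181.7 and 230.1 CPM in horse serum. With STEM the values were 131.6 CPM in library 7, 133.9 in library 8, 199.0 in library 9, 190.6 in library 10, 171.1 in library 11 and 137.1 in library 12. Libraries 7, 8 and 12 were below every horse serum library and the other 3 were inside the horse serum range, so the groups overlapped. Group means were 190.2 ± 22.9 CPM and 160.5 ± 30.3 CPM (SD, n = 6). The log2 fold change of -0.25 had a standard error of 0.12. Without horse serum library 6, the highest, it was -0.18 (standard error 0.12). Without STEM library 9 it was -0.32.

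Levels of different genes are comparable only per length, here as CPM per kb of exon (RPKM), with 1.764 kb of exon for Gadd45a, 1.589 kb for Gadd45b and 1.173 kb for Gadd45g. In horse serum the order was Gadd45a with 107.8 ± 12.99 RPKM, Gadd45g with 41.6 ± 3.12 RPKM and Gadd45b with 35.9 ± 1.54 RPKM (SD, n = 6). Gadd45a was above both others in every library. The ranges of Gadd45g (37.2 to 46.2 RPKM) and Gadd45b (34.0 to 38.6 RPKM) overlapped, although within each library Gadd45b was lower, at 0.81 to 0.96 times Gadd45g. With STEM the order of the means stayed the same, but Gadd45a (91.0 ± 17.2 RPKM, range 74.6 to 112.8) and Gadd45g (84.5 ± 3.79 RPKM, range 78.4 to 89.0) no longer differed beyond their spread. Within a STEM library Gadd45a was 0.89 to 1.37 times Gadd45g, so the order of these genes differed between libraries. Gadd45b was lowest, between 51.4 and 54.4 RPKM.

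The share of Gadd45a in the family total was between 55.7% and 60.6% in horse serum and between 35.3% and 45.2% with STEM. Gadd45g took 20.9% to 24.5% in horse serum and 33.0% to 40.2% with STEM, and Gadd45b 17.8% to 20.8% and 21.6% to 25.4%. For none of the 3 shares did the groups overlap. The shares of a library add up to the whole and come from the levels by which the family was chosen. Their separation is therefore not a result apart from those levels, and the CPM of Gadd45a itself overlapped between the groups. The ratio of Gadd45a to Gadd45g accordingly went from 2.59 ± 0.25 to 1.08 ± 0.19 (SD, n = 6). The ratio of Gadd45b to Gadd45g also separated the groups, at 0.86 ± 0.056 and 0.63 ± 0.030. These ratios are formed within a library and do not depend on its scaling. The family total was 185.3 ± 16.02 RPKM in horse serum and 228.8 ± 19.8 RPKM with STEM, and 3 of 6 STEM libraries lay above all horse serum libraries, of which library 6 reached 215.3 RPKM.

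**Figure D3:**
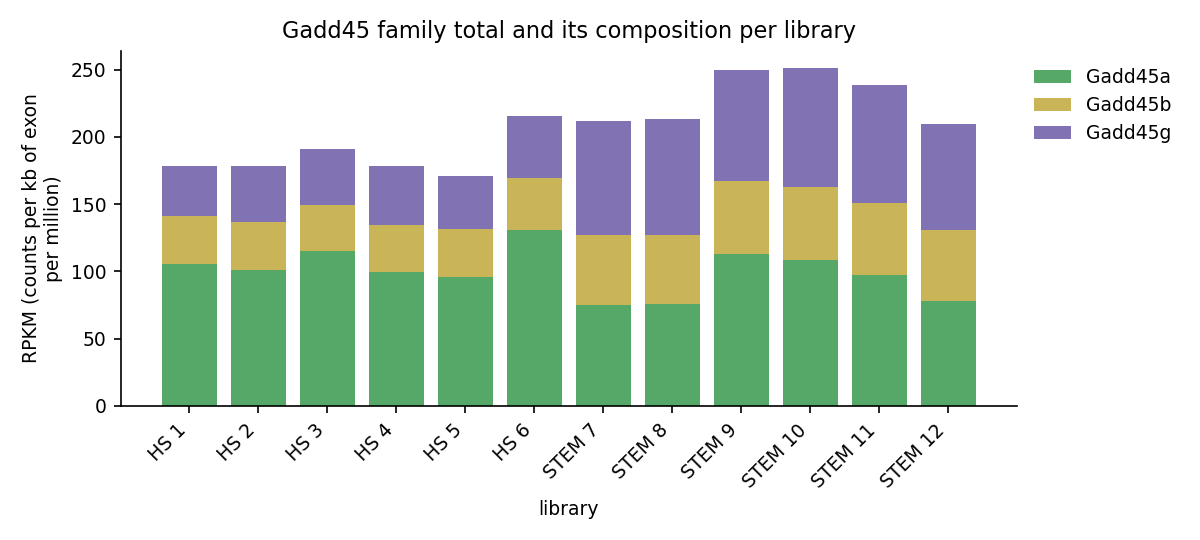
RPKM of the 3 genes stacked per library (HS, horse serum), on a linear axis from 0. The Gadd45a segment is more than 55.7% of the bar in the 6 horse serum libraries and at most 45.2% in the 6 STEM libraries, while the Gadd45g segment widens.

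Reads from neighbors and overlapping genes were examined next. The noncoding gene E230016M11Rik lies on the opposite strand and shares exonic bases with Gadd45a. It held 26 to 47 counts per horse serum library and 24 to 44 per STEM library, far fewer than Gadd45a, and was not called (log2 fold change -0.23, standard error 0.17, adjusted p = 0.319, edgeR). The strand setting of the counting is not given in the sources used here, so reads in the shared bases could have been left out or assigned to the other gene. No annotated gene overlapped Gadd45b or Gadd45g. Beside Gadd45b, Lmnb2 was lower with STEM (log2 fold change -0.22, standard error 0.068, adjusted p = 0.0216, edgeR) and Gng7 was at 0.81 CPM and 0.79 CPM. Beside Gadd45g, Sema4d was at 15.6 ± 1.39 CPM and 15.2 ± 1.64 CPM (adjusted p = 0.739). The lincRNA Gm26651, 124746 bases away, was higher with STEM (2.01 ± 0.41 CPM against 1.06 ± 0.41 CPM, a log2 fold change of 0.89 with a standard error of 0.23 and an adjusted p of 0.00811). Next to Gadd45a, Gng12 was not called (log2 fold change -0.12, adjusted p = 0.0908), nor was the noncoding A430010J10Rik at about 1.10 CPM (adjusted p = 0.993).

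The genes of known GADD45 partner proteins moved in both directions. Of the 16 genes in this list 15 were tested, and 3 were higher and 4 lower with STEM (median log2 fold change -0.00081, against 0.012 over all tested genes, edgeR), while 18.9% of all tested genes were higher and 17.4% lower. Among the kinases upstream of the stress response, Map3k4, which encodes the MTK1 kinase that GADD45 proteins activate, had a mean of 50.1 ± 3.16 CPM in horse serum, 45.3 ± 3.77 CPM with STEM and an adjusted p of 0.0863 (edgeR). Map2k7, the JNK kinase that GADD45B binds, was at 26.9 ± 1.67 and 27.0 ± 0.80 CPM (adjusted p = 0.904). Mapk14, encoding p38 alpha, rose from 41.5 ± 2.84 to 47.4 ± 1.83 CPM (adjusted p = 0.0113), or by 0.19 ± 0.053 (standard error) on the log2 scale.

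The partner genes of the cell cycle included lower and higher ones. Cdk1, the mitotic kinase, fell from 75.7 ± 15.2 to 49.3 ± 4.59 CPM (adjusted p = 0.000966), Aurka, another mitotic kinase, from 24.1 ± 5.45 to 16.6 ± 1.17 CPM (adjusted p = 0.00277) and Pcna, the replication clamp, from 72.8 ± 5.93 to 56.9 ± 4.07 CPM (adjusted p = 0.000439, edgeR). Ccnb1, the cyclin B1 gene, was at 68.0 ± 23.8 and 62.1 ± 5.71 CPM and was not called (adjusted p = 0.584), with 113.6 CPM in horse serum library 6. Cdk1 and Pcna also belong to the proliferation markers, whose summed level was lower in every STEM library. Cdkn1a, encoding the CDK inhibitor p21, rose from 276.0 ± 10.4 to 314.0 ± 27.2 CPM (adjusted p = 0.0173). Of the chromatin and repair partners, Tdg, a DNA glycosylase that removes oxidized methylcytosine, rose from 8.32 ± 0.85 to 11.8 ± 1.20 CPM (adjusted p = 0.000677), and Ing1, a histone reader, fell from 57.5 ± 4.18 to 45.9 ± 2.06 CPM (adjusted p = 0.000363). Tet1 (adjusted p = 0.401), Ercc5 (0.755), Npm1 (0.993), Rxra (0.934) and Gadd45gip1 (0.166) were not called in edgeR. Without horse serum library 6, 4 partner genes were higher and 6 lower, since Gadd45gip1 (adjusted p = 0.0223), Map3k4 (0.0242) and Tet1 (0.0267) then passed the test. In that fit 3746 of all 14267 tested genes were higher and 3499 lower.

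**Figure D4:**
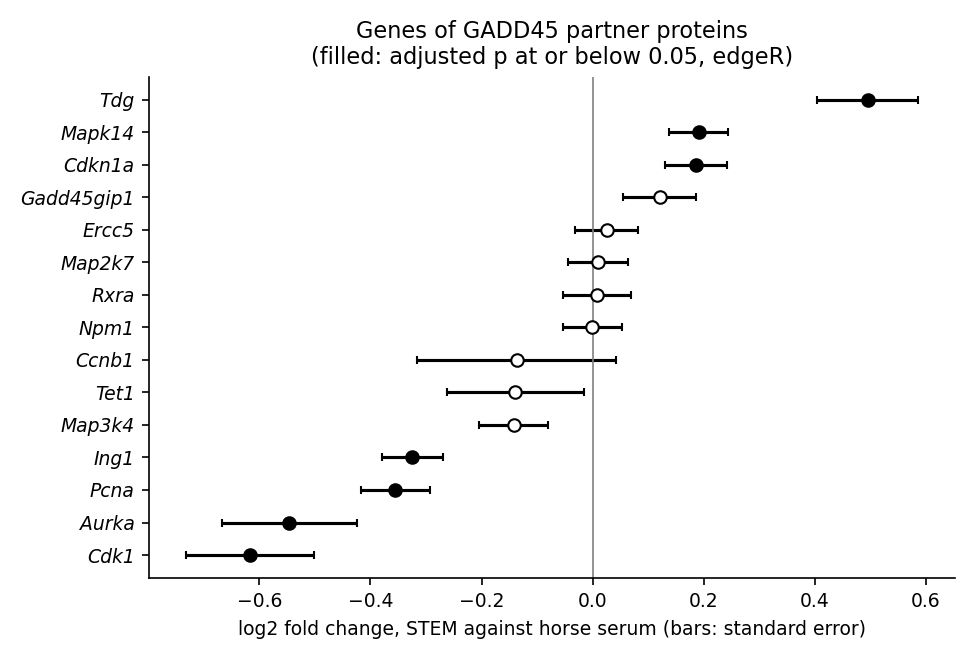
Log2 fold change of the 15 tested partner genes, STEM against horse serum, with bars of 1 standard error and filled points for an adjusted p of 0.05 or less. Tdg, Mapk14 and Cdkn1a are filled on the right of 0 and Ing1, Pcna, Aurka and Cdk1 on the left.

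Genes of the kinase cascade and of DNA methylation, to which the proteins have been linked, were mixed. Their counts stand beside 18.9% of all tested genes higher and 17.4% lower. The counts without horse serum library 6 stand beside 3746 higher and 3499 lower of all 14267 genes tested in that fit. Of 19 tested genes of the p38 and JNK cascade, 2 were higher (Mapk14 and the phosphatase gene Dusp8, log2 fold change 0.59, adjusted p = 0.00539) and 2 were lower (the phosphatase genes Dusp10, -0.66, adjusted p = 0.00307, and Dusp1, -0.29, adjusted p = 0.036, edgeR). Dusp1 was named after its values were seen. Without horse serum library 6 the count was 9, with 3 higher and 6 lower. Of 13 tested genes of DNA methylation and demethylation, 3 were higher and 2 lower, and without horse serum library 6, 2 were higher and 4 lower. Uhrf1, which guides maintenance methylation at replication, fell from 25.4 ± 8.22 to 9.75 ± 1.22 CPM, a log2 fold change of -1.38 (adjusted p = 7.14e-05), and like the summed proliferation markers it was lower with STEM. Mbd4, a glycosylase, was lower with a log2 fold change of -0.56 (adjusted p = 0.0104, edgeR).

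With no library left out, the called genes of the integrated stress response all went the same way. The counts of this list stand beside 18.9% of all tested genes higher and 17.4% lower. Of 14 tested, among them Ddit3 and Ppp1r15a, which were named as Gadd genes too, 10 were higher and 0 lower with STEM, with a median log2 fold change of 0.38 against 0.012 over all tested genes. Atf3, a stress-induced factor, rose from 4.28 ± 0.83 to 12.04 ± 2.73 CPM, with a log2 fold change of 1.49 (standard error 0.16) and an adjusted p of 8.94e-06. Nupr1 rose by 0.48 (adjusted p = 3.29e-06) and Sesn2, a stress-induced regulator of growth signaling, by 0.66 on the log2 scale (adjusted p = 2.55e-05, edgeR). Atf4, whose factor is controlled largely through translation, rose from 410.3 ± 21.04 to 525.7 ± 57.0 CPM (adjusted p = 0.000782). Without horse serum library 6 the list had 9 genes higher and 1 lower, beside 3746 and 3499 of all 14267 genes tested in that fit. The lower gene was Vldlr, at -0.54 on the log2 scale (adjusted p = 2.91e-06, edgeR), named after its values were seen. With that library kept, Vldlr was at -0.37 and was not called (adjusted p = 0.23, edgeR). Without the filter on low counts 6 were called.

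Within the STEM group, Atf4 was 512.0 CPM in library 7, 494.5 in library 8, 587.5 in library 9, 599.5 in library 10, 509.5 in library 11 and 451.0 in library 12. Libraries 9 and 10 were thus the highest for Atf4 and for Gadd45a alike, and also for Gadd45b (86.3 and 86.4 CPM). Pearson's r is given as a description, on log2 CPM. For Atf4 and Gadd45a it was 0.84 within STEM (n = 6), 0.87 within horse serum (n = 6) and 0.63 there without library 6 (n = 5). For Atf4 and Gadd45b the values were 0.64, 0.62 and -0.16, and for Atf4 and Gadd45g 0.55, 0.30 and -0.53. Atf4 was singled out after the r of all 8 known regulators had been seen. Trp53 had r = 0.87 with Gadd45a in horse serum (0.49 without library 6) and 0.10 with STEM, and Foxo3 had -0.85 (-0.50 without library 6) and -0.32. Between the groups the genes went apart, since Atf4 was higher with STEM and Gadd45a was not. Another quantity moved with Gadd45a inside the STEM group. The mean log2 deviation of GC-rich over GC-poor genes was highest in library 9 (0.10) and between 0.031 and 0.058 in the other 5 (r = 0.83 with Gadd45a, n = 6). In horse serum it lay between -0.083 and -0.017, below every STEM library (r = -0.14 with Gadd45a, n = 6). For Gadd45b and Gadd45g, r was 0.71 and 0.034 within STEM and 0.059 and -0.16 within horse serum. All 3 members are GC-rich, at percentile 92.3 for Gadd45a, 84.5 for Gadd45b and 96.6 for Gadd45g among tested genes. With an offset for this trend, chosen after the data were seen, the log2 fold changes of Gadd45a, Gadd45b and Gadd45g were -0.30, 0.53 and 0.96. The part of GC content or of Atf4 in the spread of Gadd45a or Gadd45b was not tested.

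The list of p53 targets also held Trp53 itself, which is among its higher genes. Of 28 tested, 12 were higher and 4 lower with STEM (median log2 fold change 0.13), beside 18.9% and 17.4% of all tested genes. Trp53, encoding p53, rose from 17.3 ± 2.64 to 23.6 ± 4.05 CPM (adjusted p = 0.0103), with 22.4 CPM in horse serum library 6. The lowest p-values were those of Sesn1, which was lower (log2 fold change -0.75, standard error 0.060, adjusted p = 4.69e-07), and of Sesn2 and Gdf15, a stress cytokine, which was higher (1.12, standard error 0.17, adjusted p = 0.00018, edgeR). Sesn2 and Gdf15 are also known targets of the integrated stress response. Without horse serum library 6, 14 genes were higher and 6 lower, beside 3746 and 3499 of all 14267 genes tested in that fit.

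Immediate early genes, which respond quickly to growth factors and cytokines, were the next list. Of 21 tested, 10 were higher, 0 lower and 11 not called (median log2 fold change 0.37), beside 18.9% of all tested genes higher. Those not called included Ier3 (log2 fold change -0.43) and Fosl1 (-0.20), named after their values were seen. Ier5 rose from 52.8 ± 0.96 to 70.7 ± 3.56 CPM (adjusted p = 4.67e-06), Klf10, a gene induced by TGF-beta, from 83.7 ± 10.5 to 128.1 ± 6.26 CPM (adjusted p = 1.49e-05) and Egr1, a growth factor response gene, from 10.5 ± 2.71 to 20.2 ± 4.97 CPM (adjusted p = 0.00243, edgeR). Atf3 is in this list as well. Leaving out horse serum library 6 gave 10 higher and 2 lower, beside 3746 and 3499 of all 14267 genes tested in that fit.

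The remaining lists were mixed, and their counts stand beside 18.9% of all tested genes higher and 17.4% lower. Of 14 tested NF-kB targets, 2 were higher and 4 lower. Vcam1, an adhesion molecule, fell from 101.1 ± 5.04 to 57.9 ± 5.39 CPM (adjusted p = 2.33e-07), Nfkb1 was lower by -0.12 on the log2 scale (adjusted p = 0.0361) and Nfkbib and Nfkb2 were higher (0.50 and 0.23, adjusted p = 0.000632 and 0.00998, edgeR). Of 16 TGF-beta and SMAD targets, 6 were higher and 3 lower. Pmepa1, a feedback inhibitor of the pathway, rose from 135.1 ± 45.1 to 250.7 ± 29.0 CPM (adjusted p = 0.00214), whereas Ccn2, a matrix-related target, fell with a log2 fold change of -0.82 (adjusted p = 0.000912). Smad3, encoding a signal transducer of TGF-beta, was at 63.8 ± 6.58 and 63.4 ± 3.32 CPM (adjusted p = 0.907, edgeR).

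Of 15 tested genes of denervation and atrophy, 3 were higher and 3 lower, beside 18.9% and 17.4% of all tested genes. Fst, encoding the myostatin antagonist follistatin, rose from 93.7 ± 16.1 to 204.5 ± 20.5 CPM (adjusted p = 4.3e-06) and Foxo1, a driver of atrophy genes, from 19.9 ± 1.24 to 28.2 ± 4.75 CPM (adjusted p = 0.000942). Chrng, encoding the embryonic subunit of the acetylcholine receptor, fell by 0.26 on the log2 scale (adjusted p = 0.00236, edgeR). The Gadd45a regulators Foxo3 (106.4 ± 10.8 and 103.3 ± 8.86 CPM, adjusted p = 0.681) and Hdac4 (44.1 ± 5.74 and 45.3 ± 8.03 CPM, adjusted p = 0.842) were not called. Without horse serum library 6 the counts were 2 higher and 5 lower for NF-kB targets and 7 and 3 for TGF-beta and SMAD targets. For denervation and atrophy genes they were 5 and 4. In that fit 3746 of all 14267 tested genes were higher and 3499 lower.

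**Figure D5:**
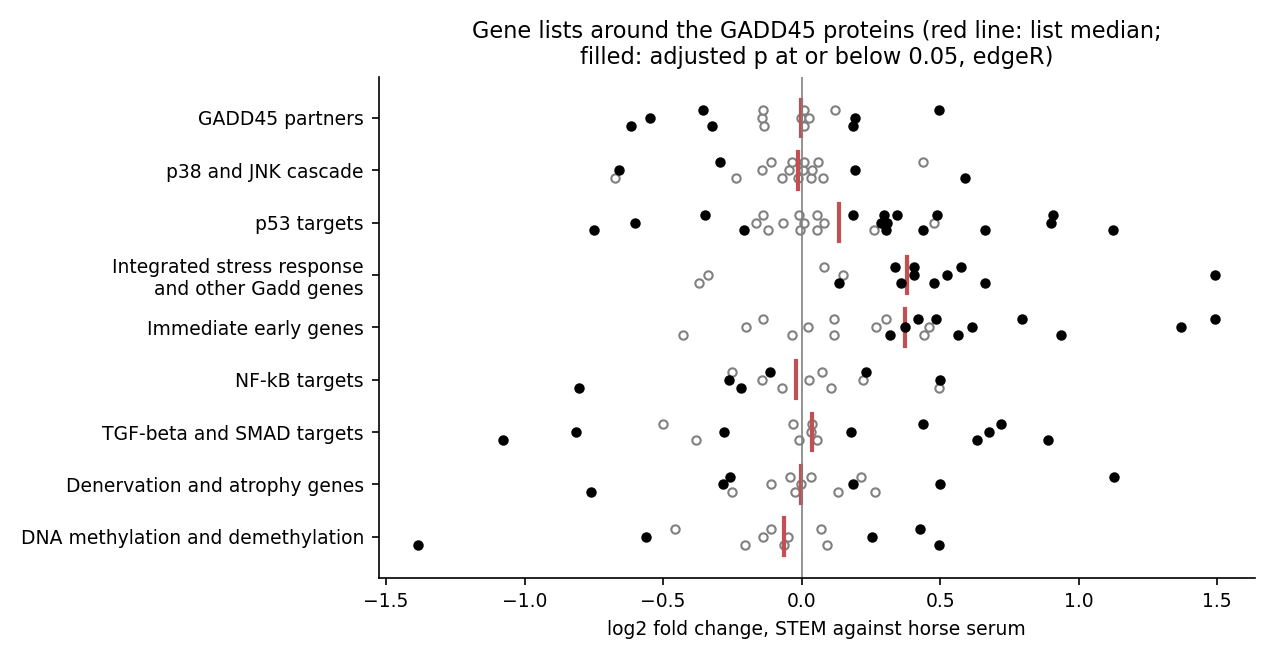
Log2 fold change of every tested gene in 9 lists, STEM against horse serum, with filled points for an adjusted p of 0.05 or less and a red line at the list median. Filled points lie on the right of 0 only for the integrated stress response and the immediate early genes, whose medians are 0.38 and 0.37.

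Across the 12 libraries, the tested genes whose log2 CPM was most like that of Gadd45g were Col23a1 (Pearson's r = 0.995), Gm6831 (0.988) and Col6a2 (0.987), and for Gadd45b they were Col6a2 (0.991), Col23a1 (0.990) and Clptm1l (0.988). The most opposed were Mt1 (-0.986) and Sept11 (-0.986) for Gadd45g and Vwa5a (-0.996) and Mt1 (-0.993) for Gadd45b. Libraries of the same group share their medium, and these values include the gap between the groups. Within a group the likeness was looser: for Gadd45g and Col23a1 r was 0.84 in horse serum and 0.68 with STEM (n = 6 each), and for Gadd45g and Col6a2 it was 0.85 and -0.46. For Gadd45b, r within horse serum and within STEM was 0.76 and 0.37 for Col6a2, and 0.36 and 0.45 for Col23a1. It was 0.81 and 0.62 for Clptm1l, -0.99 and -0.81 for Vwa5a, and -0.88 and -0.64 for Mt1. All these genes were picked by r over these same 12 libraries, so a high r within a group is no separate support. Gm6831 is annotated as a transcribed pseudogene and may share reads with a related gene.

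Over the 12 libraries, the pattern of Gadd45a differed from that of Gadd45b and Gadd45g. Its closest genes were Lztr1 (r = 0.93, n = 12), Bcl7c (0.90) and Asna1 (0.90). Inside the groups r was 0.94 in horse serum and 0.97 with STEM for Lztr1. The genes were picked by r over these same libraries, where the groups overlapped for Gadd45a. A high r inside the groups therefore follows largely from the choice, and nothing is read from it. Slc6a17 was the most opposed (-0.94, and -0.97 and -0.98 within the groups), followed by Gm13772 (-0.93), annotated as a processed pseudogene. Between members, Gadd45b and Gadd45g had r = 0.99 over the 12 libraries but 0.52 within horse serum and 0.15 within STEM. Gadd45a and Gadd45b had r = -0.45 over all libraries and, within groups, 0.52 and 0.87. For Gadd45a and Gadd45g, r was -0.47 over all libraries, 0.55 within horse serum and 0.36 within STEM.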

How the data were processed

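Total RNA depleted of ribosomal RNA was sequenced as paired reads from stranded libraries of 12 RNA samples, 6 per group by the sample labels. The authors deposited raw read counts per Ensembl gene, without normalization, on build GRCm38. Their processing notes name STAR 2.7.3a, featureCounts 1.6.3 and DESeq2 1.26.0, while the annotation release and strand setting are not given in the sources used here. Symbols, coordinates and exon lengths came from GENCODE M21, which held 55141 of the 55487 listed genes (0.0358% of counts outside it). Without the strand setting, it is not known whether reads of a gene and its antisense partner were told apart.

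Differential expression was tested with edgeR 4.0.16 in R 4.3.3 (TMM, filterByExpr, robust glmQLFit and glmQLFTest), with Benjamini-Hochberg adjustment over 14175 genes and a threshold of 0.05. A standard error is the log2 fold change over the root of the F statistic. Log2 CPM for correlations and components used a prior count of 2. DESeq2 1.42.0, limma-voom (limma 3.58.1), DESeq2 size factors, total counts, no filter, at least 10 counts in every library, each library left out and a GC offset were alternatives. In simulated counts of this comparison over 14175 genes, edgeR recovered 99 of 100 genes changed 4-fold and 87 of 100 changed 2-fold, with 2.62% of calls false. In the same counts 9.95% of the calls of DESeq2 and 2.6% of those of limma-voom were false. Only these genes were changed and no library was made to stand apart, so the rates need not hold for the real data.

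The members, gene lists and markers were chosen with earlier results of these data known. Named genes were the members, all partner genes, up to 3 called genes of lowest p per list, the known regulators Trp53, Atf4, Foxo1, Foxo3, Hdac4, Nfkb1, Smad3 and Egr1, the nearest tested genes and the genes of highest and lowest correlation. One gene named by this rule is not reported here. Pairs of libraries within a group differed by a chi-square per degree of freedom of at least 3.29, so none was taken as a repeat deposit. Counts limit precision through counting error and library spread alike.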

Additional observations from a re-analysis of the deposited data

Results flagged for a closer look

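A check for a library far from the others of its group was made for the 3 members and for the named genes of the lists, in 98 groups of 6 libraries. No level or share of a Gadd45 member was picked out. It picked out 7 values, 6 of them in horse serum library 6, and chance alone picks out about 5% of groups. Ccnb1 was highest in horse serum library 6 (113.6 CPM), as were Pmepa1 (221.3 CPM) and Trp53 (22.4 CPM). Dusp10 (30.9 CPM), Ccn2 (71.6 CPM) and Chrng (219.7 CPM) were lowest in that library. Nfkbib was highest in horse serum library 1 (9.73 CPM).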

How the results depend on the processing

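The log2 fold changes of the members kept their sign in all 19 alternatives. With each library left out they ranged from -0.32 to -0.18 for Gadd45a, from 0.55 to 0.59 for Gadd45b and from 0.99 to 1.05 for Gadd45g. Gadd45b and Gadd45g were called in all 19. Gadd45a was called in 1, without STEM library 9, where 4588 of all 14293 tested genes were called. Nothing is read from these calls, since the comparison was used to choose the family. The number of genes called over the whole table was between 4459 and 7245 with each library left out, the highest without horse serum library 6, and between 4648 and 5318 in the other alternatives, against 5155. List counts stayed within 1.5 times their value with 3 exceptions, and the cause was not tested. For the p38 and JNK cascade the count of 4 became 7 with the GC offset, which was chosen after the data were seen, and ranged from 3 to 9 with each library left out. For the integrated stress response the count of 10 became 6 without the filter on low counts. No paired analysis was possible because the labels number the horse serum libraries 1 to 6 and the STEM libraries 7 to 12, so the groups share no number. STEM library 7 was the deepest, at 24536264 counts, and was not thinned.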
